A study of Mus musculus with 16 samples.

Results

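Among the genes for E proteins and their Id inhibitors, Id1 and Id2 carried a larger share of opened ATAC-seq peaks in non-NE SCLC cells than the genome around them, and the E protein gene Tcf4 a smaller one. Id3, Id4, Tcf3 and Tcf12 also had more opened than closed peaks, in surroundings where most listed peaks were opened. ATAC-seq finds accessible chromatin by letting the Tn5 transposase cut and tag open DNA. The peaks described here are those whose centre has, as the nearest start site of a protein-coding gene, a start site of 1 of 7 genes, namely the E protein genes Tcf3, Tcf4 and Tcf12 and the inhibitor genes Id1, Id2, Id3 and Id4. They are 123 of the 80367 peaks that the authors deposited as more or less accessible in GFPhigh than in GFPneg cells, and the rule used no measured value. Of the 123, 49 belong to E protein genes and 74 to Id genes.

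Both groups of cells were sorted from lung tumors of TKO;Hes1 GFP/+ mice. TKO stands for the deletion of Rb, p53 and p130 in the lung, which both groups share, started by an adenovirus that carries Cre under the CMV promoter, so that the cell of origin was not restricted by a cell type promoter. GFP was read from 1 allele of Hes1, a Notch target gene, and thus GFPhigh cells are the non-NE and GFPneg cells the NE (neuroendocrine) cells. The tumors of each mouse were pooled before sorting, about 6 to 7 months after induction in mice of 8 to 12 weeks of age. The labels show 4 libraries per group, as 4 pairs from 3 mice with 2 pairs from 1 mouse, each read on 2 lanes, which gave 16 runs. The files hold 1 row per peak for the whole comparison and no value per library, so the depth is unknown and values by sample cannot be shown. Whether the lanes, or the pairs of 1 mouse, were summed before the fit is not stated in the sources used here, so the printed errors and adjusted p may reflect the spread between lanes and pairs and not only that between the 3 mice. For each peak they give the normalized count averaged over the libraries, a log2 fold change (GFPhigh over GFPneg) with its standard error (SE), and the adjusted p of a two-sided Wald test in DESeq2. All fold changes, SEs, counts and adjusted p given below are these deposited values. A peak is called opened when it was more accessible in GFPhigh cells and closed when it was less accessible there. For a place in the lists a peak needed a log2 fold change above 1 or below -1 and an adjusted p below 0.001, and peaks that missed these limits were not analysed here, so a gene without a listed peak is not shown to be unchanged. In such sorted populations, a change in the number of open cells and a change in the accessibility of each cell cannot be told apart.

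E proteins are basic helix-loop-helix transcription factors that are made in most cells. They bind E-boxes, short DNA sites of the form CANNTG, as dimers with each other or with class II partners, which are made in particular tissues and direct cell fates there. Id proteins dimerize with E proteins but lack the basic region that touches DNA, and so hold E proteins away from their sites. Genes of the Id family are well known targets of BMP signaling through SMAD proteins, which bind GC-rich sites that contain GGCGCC.

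The sequences that go with the peaks at the start of these genes and with their strongest changes are shown first. Promoter sequences of RefSeq (GRCm38.p6, 250 bases before to 50 after a gene's start) were read for 5 of the 7 genes. Those of Id1 and Tcf4 were not read, so nothing is said here about their promoter sequences. The following promoters are written 5′ to 3′ on the strand of the gene, with GGCGCC in capitals. The promoter of Id4 lies under an opened peak and holds 1 GGCGCC, that of Id2 holds 1 as well but overlaps no listed peak, and that of Tcf3 lies under an opened peak and holds none. The promoter of Id3, which also lies under an opened peak, and the 3 promoters of Tcf12 hold none either and are not printed. Of all 32851 mouse promoters of this length, 11.87% hold GGCGCC.
Id4 promoter, chr13:48260866-48261165, plus strand: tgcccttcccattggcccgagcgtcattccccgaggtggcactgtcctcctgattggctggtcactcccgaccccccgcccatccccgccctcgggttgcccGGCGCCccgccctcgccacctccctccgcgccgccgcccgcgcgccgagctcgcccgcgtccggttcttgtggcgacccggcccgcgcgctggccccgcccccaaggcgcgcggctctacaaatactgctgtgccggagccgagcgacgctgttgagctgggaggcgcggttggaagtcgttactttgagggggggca
Id2 promoter, chr12:25096043-25096342, minus strand: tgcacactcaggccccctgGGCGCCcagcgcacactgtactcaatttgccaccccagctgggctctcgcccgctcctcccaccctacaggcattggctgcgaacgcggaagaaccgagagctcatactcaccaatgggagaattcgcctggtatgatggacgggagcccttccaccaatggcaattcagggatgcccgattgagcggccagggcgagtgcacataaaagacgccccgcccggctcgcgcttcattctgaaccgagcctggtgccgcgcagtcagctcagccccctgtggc
Tcf3 promoter, chr10:80433586-80433885, minus strand: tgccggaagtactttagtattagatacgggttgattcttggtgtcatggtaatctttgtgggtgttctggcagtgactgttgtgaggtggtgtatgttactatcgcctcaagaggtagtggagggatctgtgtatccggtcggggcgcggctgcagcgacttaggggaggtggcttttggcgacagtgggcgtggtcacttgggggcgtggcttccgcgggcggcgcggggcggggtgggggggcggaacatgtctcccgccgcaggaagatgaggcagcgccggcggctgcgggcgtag

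Away from the promoters, the central 200 bases of peaks with the smallest adjusted p of their gene are given on the plus strand (GRCm38.p6), with every CANNTG in capitals. In this window the opened peak 67.1 kb upstream of Id4 has 4 E-boxes and the opened Tcf12 peak has 3, of which 2 read CACCTG. The opened peak 118.4 kb upstream of Id2, which had the largest fold change of all 123 peaks, has 1, and the closed peak 135.9 kb upstream of Id2 has none in this window and 5 over its whole length of 665 bp. The closed peak 32.8 kb upstream of Id3 has 3, of which 2 read CACCTG, and the closed Tcf12 peak has 1, which reads CAGCTG. The number of E-boxes thus varied within both directions among these 6 windows, which were chosen as examples. Of the windows that were read in the same way but are not printed, the opened peak 4.5 kb upstream of Id3 has none and the closed peak 498.3 kb upstream of Id4 has 2, and no windows of Id1, Tcf3 or Tcf4 are shown.
Id2 opened, chr12:25215441-25215640: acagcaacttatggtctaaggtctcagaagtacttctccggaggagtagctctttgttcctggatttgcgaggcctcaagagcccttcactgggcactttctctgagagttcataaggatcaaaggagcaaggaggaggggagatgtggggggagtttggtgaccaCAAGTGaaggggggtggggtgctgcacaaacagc
Id2 closed, chr12:25232973-25233172: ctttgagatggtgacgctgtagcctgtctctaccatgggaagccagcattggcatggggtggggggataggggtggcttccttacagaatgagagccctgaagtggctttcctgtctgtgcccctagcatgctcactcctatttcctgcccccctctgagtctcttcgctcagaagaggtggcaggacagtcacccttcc
Id4 opened, chr13:48194010-48194209: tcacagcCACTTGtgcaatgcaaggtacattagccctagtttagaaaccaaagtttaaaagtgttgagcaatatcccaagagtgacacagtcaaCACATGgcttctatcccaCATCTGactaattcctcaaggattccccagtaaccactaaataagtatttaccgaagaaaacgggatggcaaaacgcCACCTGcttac
Id3 closed, chr4:136110611-136110810: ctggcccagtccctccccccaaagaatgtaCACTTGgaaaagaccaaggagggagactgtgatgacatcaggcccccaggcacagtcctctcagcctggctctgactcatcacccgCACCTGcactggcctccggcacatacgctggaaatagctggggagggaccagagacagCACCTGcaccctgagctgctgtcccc
Tcf12 opened, chr9:71957487-71957686: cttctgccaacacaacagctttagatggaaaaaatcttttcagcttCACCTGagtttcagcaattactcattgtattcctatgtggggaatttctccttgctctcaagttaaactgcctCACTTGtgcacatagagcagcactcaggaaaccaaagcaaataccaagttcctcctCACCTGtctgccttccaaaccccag
Tcf12 closed, chr9:71849510-71849709: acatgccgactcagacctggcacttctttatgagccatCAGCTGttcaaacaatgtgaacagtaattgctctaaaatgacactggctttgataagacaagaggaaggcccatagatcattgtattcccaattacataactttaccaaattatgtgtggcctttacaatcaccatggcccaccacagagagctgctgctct

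To ask how accessibility at the genes for E proteins and for their inhibitors differed between non-NE and NE cells, the listed peaks were counted by gene. Of the 74 peaks of Id genes, 55 were opened and 19 closed, so that 74.3% were opened, whereas 50.8% of all listed peaks were opened. Of the 49 peaks of E protein genes, 15 were opened and 34 closed, which leaves 30.6% opened, and 49.2% of all listed peaks were closed. The closed majority of the E protein genes came from Tcf4, since without it 12 of 18 peaks were opened (66.7%). It also rested on distant peaks, since 15 opened and 15 closed peaks were left within 100 kb of a start site, where 55.7% of all listed peaks were opened. Among peaks that changed over 4-fold, the opened majority was not seen at Id4, with 7 opened and 8 closed peaks, or at Id3, with 2 of each, and 46.9% of all listed peaks of that size were opened. Peaks are not replicates of the conditions, and no test was made of these counts.

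**Figure D1:**
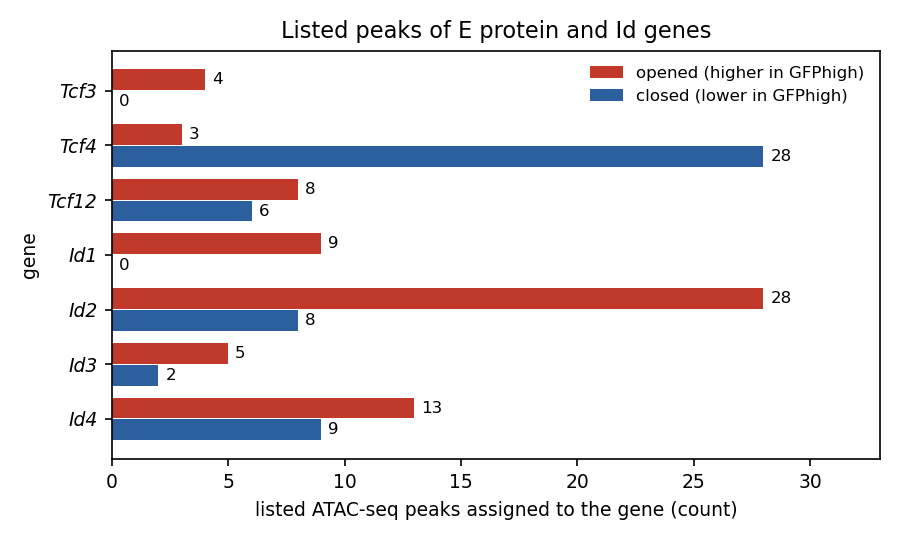
Number of listed ATAC-seq peaks (horizontal axis) assigned to each of the 7 genes (vertical axis), with opened peaks in red and closed peaks in blue. The opened bar is longer for all genes but Tcf4, which has 3 opened and 28 closed peaks.

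The member peaks spanned most of the range of the lists in size. Among the 70 opened peaks of the 7 genes, 42 (60.0%) changed over 4-fold, against 71.7% of all opened peaks. Among the 53 closed peaks, 48 (90.6%) changed over 4-fold, against 83.8% of all closed peaks. The median log2 fold change was 2.24 for opened Id peaks and 2.75 for opened E protein peaks, while it was 2.92 for all opened peaks. For closed peaks it was -2.44 at Id genes, -2.78 at E protein genes and -2.66 over the whole list. The mean normalized count of the 123 peaks ran from 4.17 to 541, and the widest SE, 1.27, went with the lowest count.

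**Figure D2:**
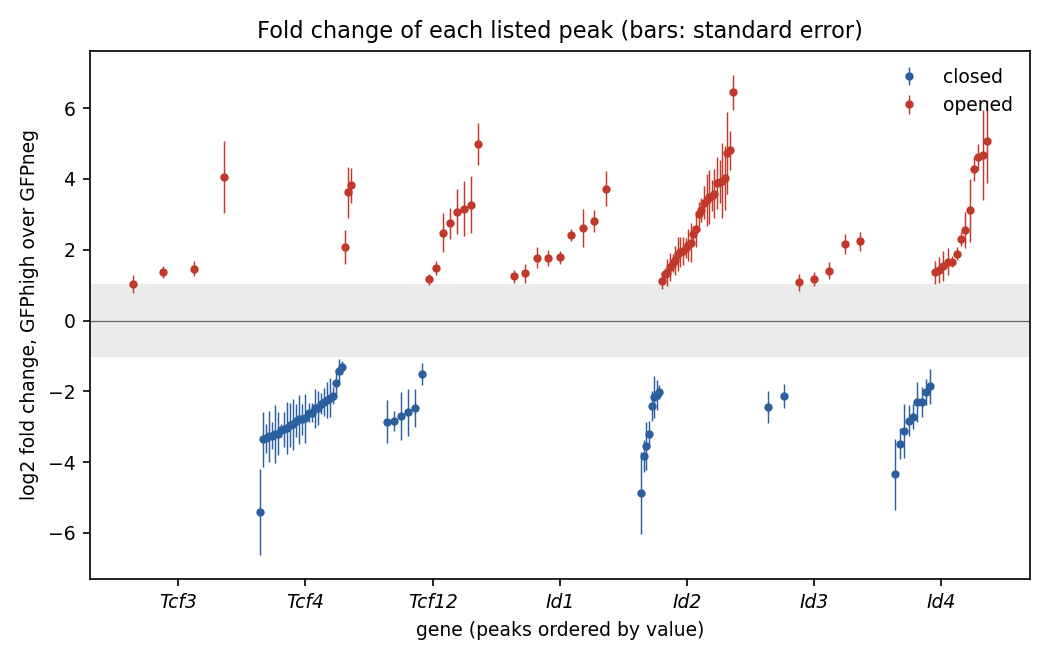
Log2 fold change of GFPhigh over GFPneg cells (vertical axis) of each of the 123 peaks, sorted by value within its gene (horizontal axis). Points are the deposited estimates, bars their standard errors, and the grey band is the range between -1 and 1 that the lists leave out; opened peaks are red and closed peaks blue.

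**Figure D3:**
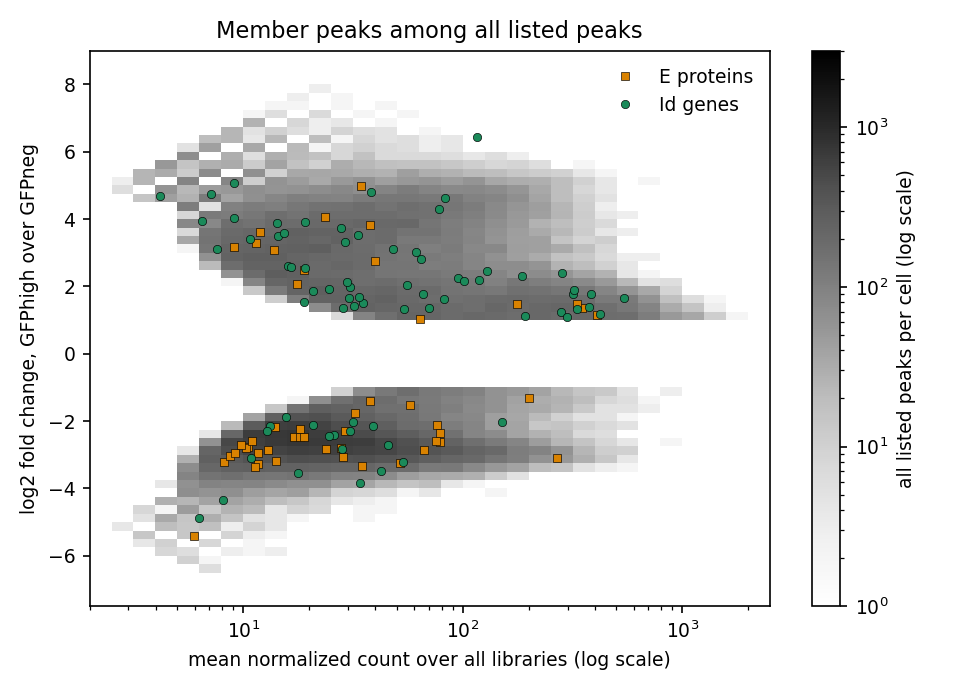
Mean normalized count over all libraries (horizontal axis, log scale) and log2 fold change of GFPhigh over GFPneg cells (vertical axis) of the member peaks, with all 80367 listed peaks as grey cells whose shade counts peaks on a log scale. Squares are peaks of E protein genes and circles those of Id genes, and the circle at a log2 fold change of 6.45 is the Id2 peak with the largest change.

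Id1, whose product is the founding member of the inhibitor family, had 9 opened peaks and no closed one. They lie between 19.8 kb upstream and 6.4 kb downstream of its only start site on chromosome 2, and 8 of them lie within 10 kb. The promoter peak (chr2:152736047-152736527, over the start of the gene) had a mean normalized count of 279 and a log2 fold change of 1.25 ± 0.18 (SE), which is 2.38-fold, with an adjusted p of 1.65e-11. The smallest adjusted p, 3.82e-42, belonged to the intergenic peak 5.5 kb downstream of the start (chr2:152741416-152741997), where the log2 fold change was 2.41 ± 0.17. The largest change was at the most distant peak, 19.8 kb upstream, with 3.72 ± 0.50 on the log2 scale. The promoter had the smallest estimate of the 9 peaks, although the next, 1.33 ± 0.27, differed from it by less than either SE. Of the 7 genes Id1 had the densest listed peaks, with 26.8 per 100 kb of the 33.6 kb of genome that is nearest to its start, against 2.95 per 100 kb over the genome.

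Id2, an inhibitor with broad expression, had 28 opened and 8 closed peaks. By number of opened peaks it ranked 19th among the 14598 genes with a listed peak. This number depended on how peaks were given to genes, since 3 opened peaks lay within 10 kb of the gene body and 5 had Id2 as the nearest gene of any biotype, each beside 1 closed peak. None of its 36 peaks lay within 1 kb of its own start sites, and the nearest were an opened peak 2.4 kb upstream (log2 fold change 1.51 ± 0.39) and another 2.7 kb downstream of a start (1.63 ± 0.26). Most of its peaks were distal, with 17 opened and 7 closed peaks over 100 kb from a start site, within a stretch of 721 kb in which its starts are the nearest of protein-coding genes, and 11 opened and 1 closed peaks lay within 100 kb. The intergenic peak 118.4 kb upstream (chr12:25215306-25215774) had both the smallest adjusted p of the opened peaks, 1.29e-36, and the largest change, 6.45 ± 0.50 on the log2 scale, or 87.2-fold. Its neighbours differed in size, since the opened peak at 119.8 kb had a log2 fold change of 3.12 ± 0.34 and the one at 112.3 kb had 1.32 ± 0.16. Closed peaks lay between the opened ones. The strongest of them by adjusted p (3.72e-22) was 135.9 kb upstream (chr12:25232740-25233404), with a log2 fold change of -2.01 ± 0.20, and it separates a run of 10 opened peaks over 108 kb from another run of 10 over 63.7 kb. The largest closing, -4.87 ± 1.16, was at the farthest peak, 614.2 kb upstream.

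Id3 had 5 opened and 2 closed peaks on chromosome 4, and position separated them. All 5 opened peaks fell between 4.5 kb upstream and 4.4 kb downstream of its start site, in a stretch of 9.3 kb, and the 2 closed ones were 31.0 and 32.8 kb upstream. The promoter peak (chr4:136143575-136144016, within the gene) changed by 1.18 ± 0.21 on the log2 scale (2.26-fold, adjusted p = 5.54e-08). A peak 4.5 kb upstream had the smallest adjusted p of the opened ones, 4.02e-16, and a log2 fold change of 2.24 ± 0.27. The closed peaks had log2 fold changes of -2.13 ± 0.34 and -2.44 ± 0.45, of which the first had the smaller adjusted p, 1.02e-09.

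Id4, the member of the family best known from the nervous system, had 13 opened and 9 closed peaks on chromosome 13. As at Id2, these numbers depended on how peaks were given to genes. Only 4 opened peaks lay within 10 kb of the gene body and 2 had Id4 as the nearest gene of any biotype, with no closed peak in either case. Both of its promoter peaks were opened. The one just upstream of the start (chr13:48260669-48261227) had the highest mean normalized count of the 123 peaks, 541, and a log2 fold change of 1.66 ± 0.16 (3.17-fold, adjusted p = 2.39e-24), and the one inside the gene (chr13:48261379-48261686) had 1.36 ± 0.33 (adjusted p = 7.64e-05). These peaks are part of a run of 9 opened peaks over 95.9 kb, which also holds the opened peak with the smallest adjusted p, 67.1 kb upstream (4.61 ± 0.37, adjusted p = 7.42e-34), and the largest change, 63.7 kb upstream (5.07 ± 1.17). Downstream of this run lay 5 closed peaks in a row, 46.9 to 98.2 kb from the start, with log2 fold changes between -3.11 and -1.86. The smallest adjusted p of a closed peak, 5.44e-15, was at the farthest upstream one, at 498.3 kb (-3.48 ± 0.43).

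**Figure D4:**
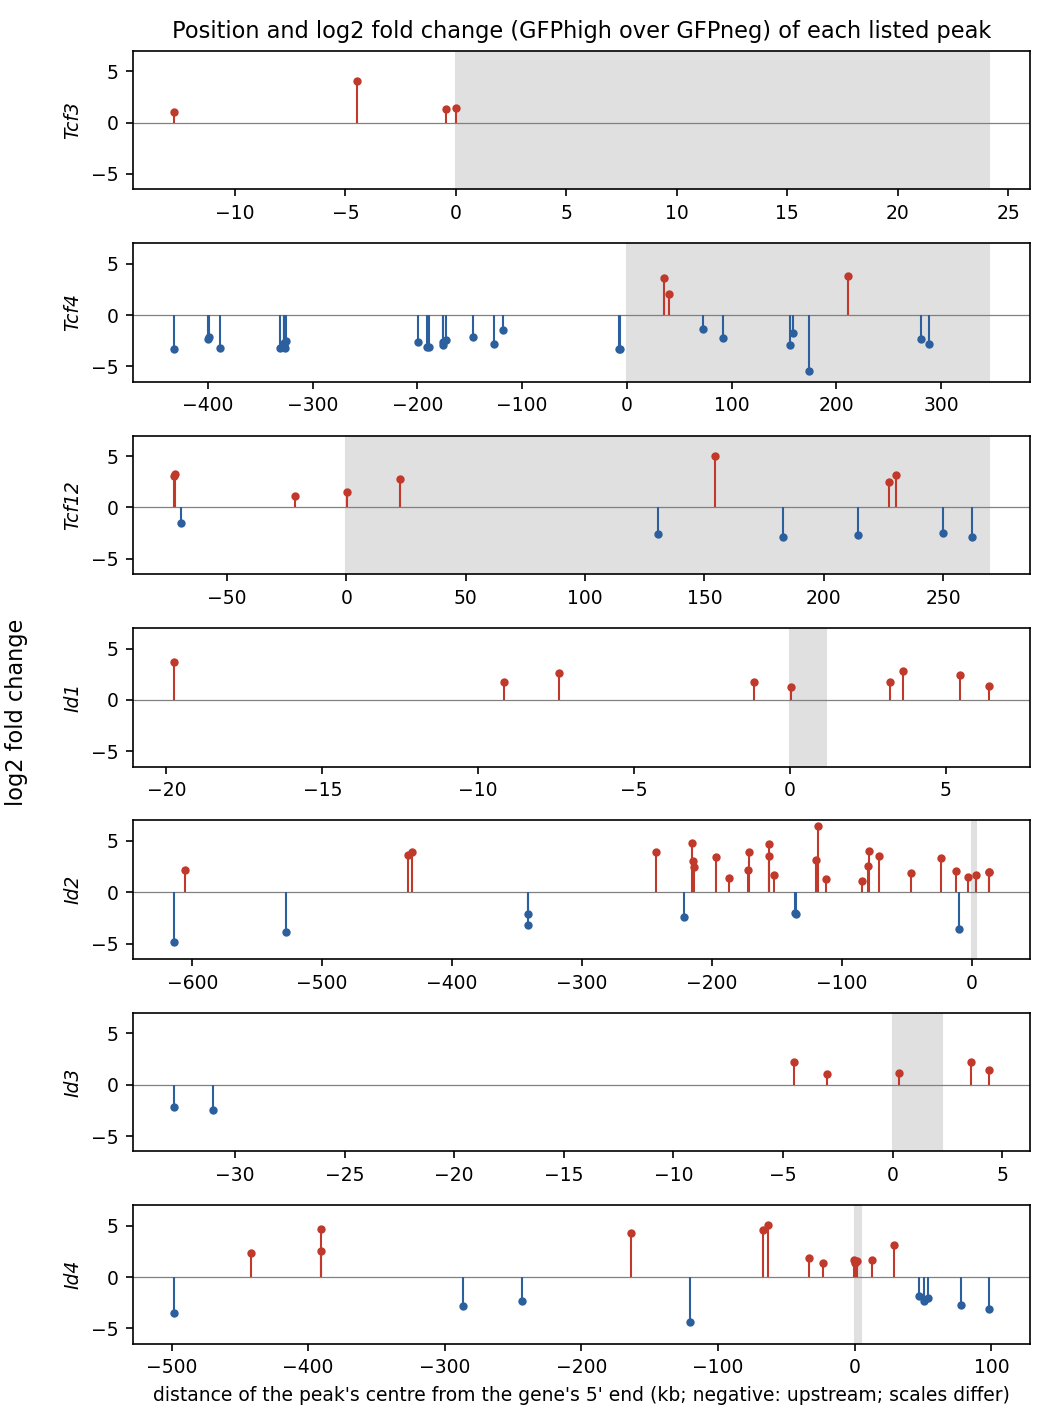
Log2 fold change of GFPhigh over GFPneg cells (vertical axis) against the distance of each peak's centre from the 5′ end of its gene in kb (horizontal axis, negative is upstream, with a scale of its own in each panel), in 1 panel per gene. Grey shading is the gene, red stems are opened and blue stems closed peaks; the 21 peaks upstream of Tcf4 are all closed and the 9 of Id1 are all opened.

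Among the E protein genes, Tcf4 differed from the others in direction. Of its 31 peaks 28 were closed and 3 opened, and it ranked 85th among the genes with a listed peak by number of closed ones. This rank also reflects the 882 kb in which its starts are the nearest of protein-coding genes, the longest such stretch of the 7 genes. Its density was 3.51 listed peaks per 100 kb, against 2.95 over the genome. Within 100 kb of its start sites, 9 closed peaks were left beside the 3 opened ones. The first 21 of its peaks on chromosome 18, from 433.2 to 7.7 kb upstream of a start site near the gene's 5′ end, were closed without exception, with log2 fold changes between -3.36 and -1.41. Of these, 5 were crowded between 328.4 and 326.2 kb upstream and are neighbours rather than separate regions. The smallest adjusted p among all 123 peaks, 1.53e-71, belonged to a closed intergenic peak 191.8 kb upstream (chr18:69152126-69152645), with a mean normalized count of 270 and a log2 fold change of -3.11 ± 0.17, which is 8.61-fold lower. Within the gene 7 further peaks were closed, among them the promoter peak of an internal start site (chr18:69415493-69415989, -1.32 ± 0.18, adjusted p = 3.85e-12). The largest closing, -5.41 ± 1.21, was in an intron and rested on a mean normalized count of only 5.95. All 3 opened peaks of Tcf4 were intronic, and the one with the smallest adjusted p (4.38e-14) had a log2 fold change of 3.82 ± 0.49.

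Tcf3, which encodes E12 and E47, had 4 opened peaks and no closed one, all at or upstream of its start on chromosome 10. Its promoter peaks changed by 1.47 ± 0.20 (chr10:80433503-80433824, adjusted p = 1.27e-12) and 1.37 ± 0.17 (chr10:80433910-80434298, adjusted p = 1.27e-15) on the log2 scale. The intergenic peak 4.5 kb upstream had the largest change but also a wide error, 4.05 ± 1.02. The peak 12.8 kb upstream was just past the limit of the list, at 1.04 ± 0.25.

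Tcf12, which encodes HEB, had 8 opened and 6 closed peaks on chromosome 9 that alternated along the gene. Its promoter peak (chr9:72111019-72112266) was opened, with a log2 fold change of 1.49 ± 0.20 (2.80-fold, adjusted p = 3.75e-13). The opened peak with the smallest adjusted p and the largest change lay in an intron (chr9:71957439-71957733, 4.99 ± 0.59, adjusted p = 2.6e-16), 61.2 kb upstream of an internal start site. In the same gene, the strongest closed intronic peak by adjusted p (chr9:71849308-71849910) had a log2 fold change of -2.84 ± 0.29 (adjusted p = 3.76e-21), and the largest closing was -2.86 ± 0.61. The strongest opened and closed peaks of Tcf12 were therefore both inside the gene.

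Seen by distance, the share of opened Id peaks was above that of the lists both near to and far from the start sites. Within 10 kb, 18 of 19 Id peaks were opened (94.7%), against 65.4% of all listed peaks at that distance, and 4 of 11 E protein peaks were opened. Over 100 kb away, 21 of 32 Id peaks were opened (65.6%), against 32.5% of all such peaks. Of these Id peaks, 17 opened and 7 closed ones belonged to Id2 and 4 of each to Id4, with none at Id1 or Id3. All 19 E protein peaks at that distance, each of them upstream of Tcf4, were closed. Between these limits, 16 of 23 Id peaks and 11 of 19 E protein peaks were opened, against 49.6%. At promoters, within 1 kb of a start site of the gene itself, 7 of 8 member peaks were opened, and the closed one was that of Tcf4. Since 74.3% of all 10359 listed promoter peaks were opened, this count is near the background. With promoters reaching 3 kb, the E protein genes had 3 opened and 5 closed promoter peaks in place of 3 and 1, and the Id genes 8 opened and none closed, while 70.6% of all listed peaks within 3 kb were opened.

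The share of opened peaks also varies along the genome, so each gene was set beside the peaks of other genes within 1 Mb of the stretch in which its own start sites are the nearest. At Id2 77.8% of the peaks were opened, whereas 37.2% of its 78 surrounding peaks and 43.2% of the peaks of chromosome 12 were. At Id1 the share was 100% against 62.2% around it. Tcf4 departed in the other direction, with 9.68% opened, against 37.4% of 91 surrounding peaks and 41.7% on chromosome 18. Id3 (71.4% against 76.5%), Id4 (59.1% against 62.4%) and Tcf12 (57.1% against 65.8%) lay near their surroundings, and the 4 opened peaks of Tcf3 lay where 82.5% were opened. None of these differences was tested.

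**Figure D5:**
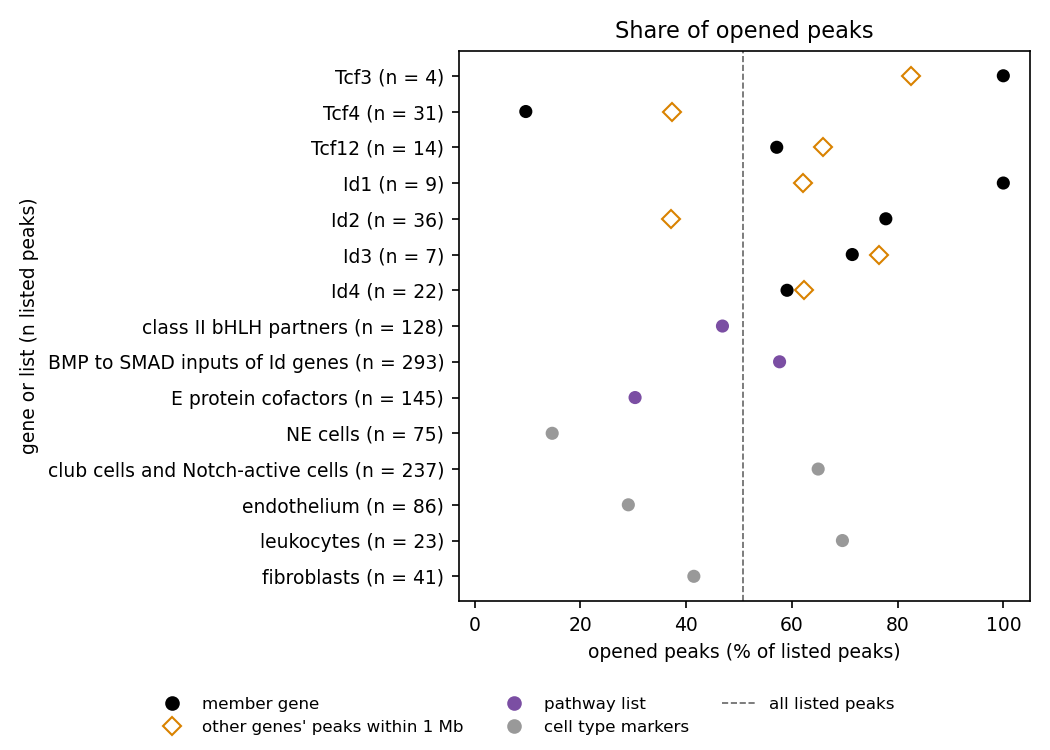
Share of opened peaks in percent of listed peaks (horizontal axis) for the 7 genes (black), the peaks of other genes within 1 Mb of each (open diamonds), the pathway lists (purple) and the cell type marker lists (grey), with the number of listed peaks after each name. The dashed line is the share over all listed peaks, 50.8%, and the wide gaps between gene and surroundings are those of Tcf4, Id1 and Id2.

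The sequence of the peaks was searched for E-boxes, for the SMAD-type core and for cores of other factors, on both strands of the 200 bp around each peak's centre. In 40 of the 123 peaks, which are narrower than that, the search reached past the peak's edges, and in 6 of the 123 an E-box was found in the window but not within the peak itself. An E-box of any kind (CANNTG) was in the window of 36 of 55 opened Id peaks (65.5%) and of 13 of 15 opened E protein peaks (86.7%), and 64.7% of all opened peaks held one. In closed peaks the shares were 15 of 19 for Id genes (78.9%) and 27 of 34 for E protein genes (79.4%), near the 80.8% of all closed peaks. The form CACCTG, 1 kind of CANNTG, was in 32.7% of opened Id peaks and 40.0% of opened E protein peaks, against 16.4% of all opened peaks. In closed peaks it was in 57.9% of those at Id genes and 35.3% of those at E protein genes, against 28.7%. CAGCTG, another form, was near the lists for Id genes, with 12.7% of opened peaks against 12% and 21.1% of closed peaks against 22.6%, and was in 13.3% and 29.4% of the E protein peaks. CATCTG was in 12.7% of opened and 26.3% of closed Id peaks and in 20.0% and 23.5% of the E protein peaks, against 9.88% and 22.0%.

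GGCGCC, the core found in SMAD sites of Id promoters, was in the window of 8 of 55 opened Id peaks (14.5%) and of no opened E protein peak, against 5.22% of all opened peaks. With whole peaks searched, it was in 8 of 55 (14.5%) and in 2 of 15 (13.3%), against 9.49%, so the gap between the families rested on the window. Of the 8, 4 belong to Id4, 2 to Id1 and 2 to Id3, and both promoter peaks of Id4 are among them, whereas 1 of the Id4 matches lies outside its narrow peak (chr13:48262901-48262987). Closed peaks held it in 2 of 19 cases at Id genes, both upstream of Id2, and in none of 34 at E protein genes, against 2.23%. Several other cores were searched. CATTCC, of TEAD factors, was in 25.5% of opened Id peaks and 13.3% of opened E protein peaks, against 18.1%, and in 5.26% and 5.88% of closed ones, against 8.77%. TGANTCA, of AP-1, was in 14.5% of opened Id peaks and 13.3% of opened E protein peaks, against 10.6%, and in 36.8% and 32.4% of closed ones, against 26.4%. TGGGAA, of RBPJ, the DNA-binding partner of Notch, was in 23.6% of opened Id peaks and 26.7% of opened E protein peaks, against 20.7%, and in 10.5% and 32.4% of closed ones, against 16.3%. TAAACA, of FOX factors, was in 14.5% of opened Id peaks and 13.3% of opened E protein peaks, against 16.2%, and in 26.3% and 26.5% of closed ones, against 22.2%. A match is a string of letters and not a bound site, and these shares rest on few peaks.

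The listed peaks of the rest of the pathway went in both directions. Class II partners, the tissue-specific proteins that pair with E proteins, had 60 opened and 68 closed peaks at 38 of 43 genes (46.9% opened, against 50.8% of all listed peaks), and closed promoter peaks were found at 12 of the genes and opened ones at 4, against 74.3% opened among all listed promoter peaks. Atoh1, a determinant of several sensory and secretory cell types, had 12 closed peaks and no opened one, with log2 fold changes between -3.08 and -1.02. In contrast, Atoh8 had 10 opened and 2 closed peaks, Twist2, a mesenchymal factor, had 11 opened and none closed, and Scx, a tendon factor, had 5 opened and 2 closed. The BMP inputs of the Id genes had 169 opened and 124 closed peaks at 21 of 25 genes (57.7% opened). The receptor gene Acvr2a had 10 opened and 44 closed peaks and Bmpr1b, another receptor gene, 16 and 10, and the ligand gene Bmp2 had 10 and 15. Smad7, an inhibitor of the pathway that BMP and TGF-β signals also induce, had 32 opened and 7 closed peaks. Smad6, the inhibitor more selective for BMP signals, had 24 opened and none closed, while the ligand gene Bmp7 had 11 closed and none opened. Both were named after their values were seen. In this list 14 genes had more opened and 6 more closed peaks. Cofactors and modifiers of E proteins had 44 opened and 101 closed peaks at all 12 genes (30.3% opened). The LIM-only genes differed, with 23 opened and 23 closed peaks at Lmo4 and only closed ones at Lmo1, 19 in number, and at Lmo2, 11 in number. Genes of the ETO family of corepressors had 3 opened and 33 closed peaks at Runx1t1, 4 and 8 at Cbfa2t3 and 2 and 1 at Cbfa2t2, and Lmo2 and Cbfa2t2 are named after their values were seen.

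Most markers of the labelled cells had more peaks in the labelled direction, with 1 exception in each list, which were Chga (8 opened and 6 closed peaks, although its 2 promoter peaks were closed) and Nfib (18 opened and 40 closed, with its promoter peak opened). Genes of NE cells had 11 opened and 64 closed peaks, with closed promoter peaks at 8 of 10 genes and opened ones at none, while Syp and Dll3 had no listed peak, and genes of club and Notch-active cells had 154 opened and 83 closed peaks, with opened promoter peaks at 9 of 10 genes. As given above, 50.8% of all listed peaks and 74.3% of the promoter peaks were opened, so opened promoters were common in the lists as a whole. Markers of endothelium, a cell type in which Id1 and Id3 are known to be active, had 25 opened and 61 closed peaks at 9 genes, with 2 opened and 2 closed promoters. Leukocyte markers had 16 opened and 7 closed peaks, at 6 of 9 genes and with 1 opened promoter. Fibroblast markers had 17 opened and 24 closed peaks at 6 of 9 genes, with 2 opened and 2 closed promoters, and none at Col3a1, Pdgfrb or Lum. Before sorting, the cells were stained for surface markers of leukocytes, endothelium and red blood cells. The part of such cells in the peaks of the Id and E protein genes was not tested.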

How the data were processed

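ATAC-seq libraries of GFPhigh and GFPneg cells were compared as the authors deposited them. The authors trimmed the reads, aligned them to mm10 (Bowtie2 2.3.4.1 in the submitters' processing notes), removed duplicates with Samtools, called narrow peaks with MACS2 on reads shifted to the Tn5 insertion sites, merged the peaks of all samples, counted reads in them with bedtools and compared the groups with DESeq2 1.28.1. Whether lanes or the pairs of 1 mouse were summed first is not stated in the sources used here. The signal deposited per peak is the normalized count averaged over the libraries, and the deposited log2 fold changes and their SEs are the authors' estimates. The deposited score is the Wald statistic, and the deposited p-values and adjusted p-values (Benjamini-Hochberg) are those of the authors' test. No value per library could be read, so the comparison was not refitted and depth and precision are known only through the SEs.

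Peaks were placed on GRCm38.p6, the assembly of mm10, with 1-based positions. The nearest start site of a protein-coding gene (GENCODE basic) to a peak's centre named its gene. Promoter peaks had their centre within 1 kb of a start site of their own gene. Motif cores were searched as exact strings. Python 3.11.15, pandas 2.3.3, numpy 2.4.6, pysam 0.24.0 and matplotlib 3.10.9 were used, and the steps were tested on simulated data. By rule, the text names every promoter peak of a member, its opened and closed peak with the smallest adjusted p and its peak with the largest change, and of each pathway list the 4 genes with the most listed peaks, ties included, except for an item that is not reported here. The members and lists were chosen with earlier results of these data known. The alternatives were stricter limits, merging of near peaks, other assignments to genes, a wider promoter and a search of whole peaks.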

Additional observations from a re-analysis of the deposited data

How the results depend on the processing

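No paired analysis was possible because the files hold no value per sample, and for the same reason no library could be left out. Every alternative counts the same deposited peaks in another way, and the majority of a family was turned by 1 of them, at the promoters of the E protein genes. With peaks over 4-fold only, 32 opened Id peaks were left, and Id4 had 7 opened and 8 closed peaks in place of 13 and 9. At adjusted p values below 1e-05, 9 opened and 19 closed E protein peaks were left. At most 100 kb from the start site there were 34 opened and 8 closed Id peaks and 15 closed E protein peaks, beside 15 opened ones. Within 10 kb of the gene body there were 20 opened and 1 closed Id peaks and 14 closed E protein peaks, beside 13 opened ones. With start sites of genes of every biotype, which hands distal peaks to noncoding genes, there were 17 opened and 1 closed Id peaks and 10 closed E protein peaks, beside 10 opened ones. The closed majority of the E protein genes was thus absent or 1 peak wide in these 3 assignments, while the share of opened Id peaks ran from 64.0% to 95.2% over all settings of the limits and the assignment, and that of Tcf4 from 9.68% to 25%. With promoters reaching 3 kb, the promoter peaks of E protein genes were 3 opened and 5 closed, in place of 3 and 1, and those of Id genes 8 opened and 0 closed, in place of 4 and 0. The other 30 values for the families moved by at most 1.5 times or, for motif shares, stayed within the 95% interval of the reported share. That interval is wide for few peaks, and GGCGCC in opened E protein peaks went from 0% to 13.3% within it. The counts of single genes were less stable, since 31 of them moved by more than 1.5 times and 67 did not. Depth per library is unknown, so how far counting limits single peaks cannot be said beyond the SEs.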
